A study of Mus musculus with 6 samples.

Results

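The MYC, MAX and MXD network was followed through 9 genes: the MYC genes Myc, Mycn and Mycl, the shared partner Max, the MAX-like partner Mlx, and the antagonists Mxd1, Mxd4, Mxi1 and Mnt. The members were all the genes of that list, taken through every probe set that the platform annotation assigns to them and to no other gene. This gave 19 of the 22690 probe sets on the array and 9 of 12393 named genes. The RNA came from 3 mouse cell lines derived from lung adenocarcinoma, KPR4, KPR5 and KPR8, all of a C57/B6-129SvJae background. Each line was cultured once with ethanol vehicle and once with 4-OH tamoxifen at 250 nM, added 24 h before RNA was collected, so each treatment has 3 arrays. Tamoxifen reactivates p53 in these cells per the labels, whereas the vehicle cultures are the state before p53 returns. The alleles and the driver that make p53 respond to the drug are not given in the sources used here. No array of cells lacking the drug-responsive p53 was analysed here, so an effect of p53 and an effect of the drug itself cannot be told apart.

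MYC proteins are transcription factors of the basic helix-loop-helix leucine zipper class. They bind DNA only as a dimer with MAX, at E-box sequences, and recruit co-activators that raise the output of genes for ribosome assembly, nucleotide synthesis and growth. MXD proteins, MXI1 and MNT compete for the same partner and the same sites but bring in SIN3 and histone deacetylases, which silence transcription. In many tissues MYC is high in dividing cells, and MXD proteins rise as cells leave the cycle and differentiate. MLX is a second hub, which dimerises with some MXD proteins, with MNT and with the glucose-responsive Mondo proteins.

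Values are log2 expression per probe set, and changes are tamoxifen minus vehicle on that scale. A gene was tested where a probe set reached log2 4 on at least 3 of the 6 arrays, which left 7644 genes. The call is a limma adjusted p under 0.05 with the cell line as a term. An array value is an average over a culture, so fewer cells making a transcript and less of it in each cell cannot be told apart.

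Between 57.2% and 57.6% of probe sets reached log2 4, depending on the array. The labels' account of p53 was looked at through 4 of its targets, Cdkn1a, Mdm2, Ccng1 and Phlda3, which all rose, by 2.86 to 4.63. All 6 epithelial markers (Epcam, Cdh1, Krt8, Krt18, Krt19 and Cldn4) passed the filter, whereas 0 of 6 alveolar or airway markers did. The alveolar markers Nkx2-1 and Sftpc stayed at or under 2.83 and 3.13. Bacillus control probe sets, which give the level of background, lay between 1.13 and 2.84. Of 7 leukocyte markers 3 passed the filter: Cd14 read 6.42 to 9.23, Cd3e 3.53 to 4.37 and Cd68 3.42 to 4.83. Cd68 rose, by 1.02, and Ptprc, the common leukocyte marker, did not exceed 2.05. The summed log2 level of the 7 ran from 24.4 to 26.5 with vehicle and from 24.6 to 28.0 with tamoxifen. That of 7 fibroblast markers ran from 28.6 to 30.5 and from 27.7 to 30.3, and that of 5 endothelial markers from 14.8 to 15.6 and from 14.6 to 15.2. The summed level of the 6 alveolar or airway markers ran from 15.5 to 16.0 with vehicle and from 16.5 to 17.4 with tamoxifen, without overlap. Foxj1, a ciliated-cell factor below the filter, contributed most, with a change of 0.93 ± 0.12 (SE). The part of these markers in the results was not tested.

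Among the 9 members, 7 passed the filter on level, each through 1 probe set. Of these 7, 2 rose, both antagonists (Mxd4 and Mxi1), where 10.5% of all genes tested were called higher. In the limma fit 0 fell, also at an unadjusted p under 0.05, where 8.94% of all genes were called lower. Mycl and Mxd1 did not pass. With so few members, a count of 2 is a description of these genes and not of the network as a class.

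The upstream sequences of the genes that rose are shown first, because the E-box CACGTG is where MYC and MXD dimers with MAX bind. RefSeq's promoter table for GRCm38.p6 held 8 of the 9 members, all but Myc. The 250 bases before each start were searched for CACGTG, which reads the same on both strands. It was found in 3 of the 10 windows of the members, those of Mxd4, Mnt and Mlx. The share was 6.02% of the 32851 windows in the table and 8.55% of the 8102 windows of genes tested. Over so few windows the count of members is a description. In the Mxd4 window it begins 219 bases before the start, and it is in capitals here. Mxi1 has several annotated starts, and those shown hold no CACGTG. The p53 half-site consensus, searched without mismatch on both strands, was in 1 window, that of Mycl, against 7.13% of all windows, and did not overlap an E-box.
Mxd4, chr5:34187711-34187960, minus strand: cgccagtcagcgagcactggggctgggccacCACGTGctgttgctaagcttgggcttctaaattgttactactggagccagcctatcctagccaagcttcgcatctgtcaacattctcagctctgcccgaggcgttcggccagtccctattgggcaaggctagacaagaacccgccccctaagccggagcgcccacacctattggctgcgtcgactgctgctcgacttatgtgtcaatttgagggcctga
Mxi1, chr19:53310256-53310505, plus strand: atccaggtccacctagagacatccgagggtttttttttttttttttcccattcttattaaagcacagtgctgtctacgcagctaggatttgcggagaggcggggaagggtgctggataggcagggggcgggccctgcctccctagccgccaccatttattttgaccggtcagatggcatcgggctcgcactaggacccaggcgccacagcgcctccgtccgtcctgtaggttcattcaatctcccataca
Mxi1, chr19:53329163-53329412, plus strand: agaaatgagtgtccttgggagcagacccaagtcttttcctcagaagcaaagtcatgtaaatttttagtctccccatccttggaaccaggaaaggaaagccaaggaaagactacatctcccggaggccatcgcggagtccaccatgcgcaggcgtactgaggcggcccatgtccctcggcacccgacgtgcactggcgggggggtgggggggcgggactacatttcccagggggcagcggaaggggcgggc

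The E-boxes of the other members are shown with their flanks, for comparison with that of Mxd4. They begin 123 bases before the Mnt start and 40 bases before the Mlx start, both on the plus strand of chromosome 11.
Mxd4: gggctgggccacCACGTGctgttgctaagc
Mnt: ccccacccaagcCACGTGtgcgcgcgcggt
Mlx: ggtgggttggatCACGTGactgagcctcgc
Of these 3 genes Mxd4 rose with tamoxifen, and Mnt and Mlx did not pass the test. A match is a run of letters and does not show that a dimer was bound.

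**Figure D1:**
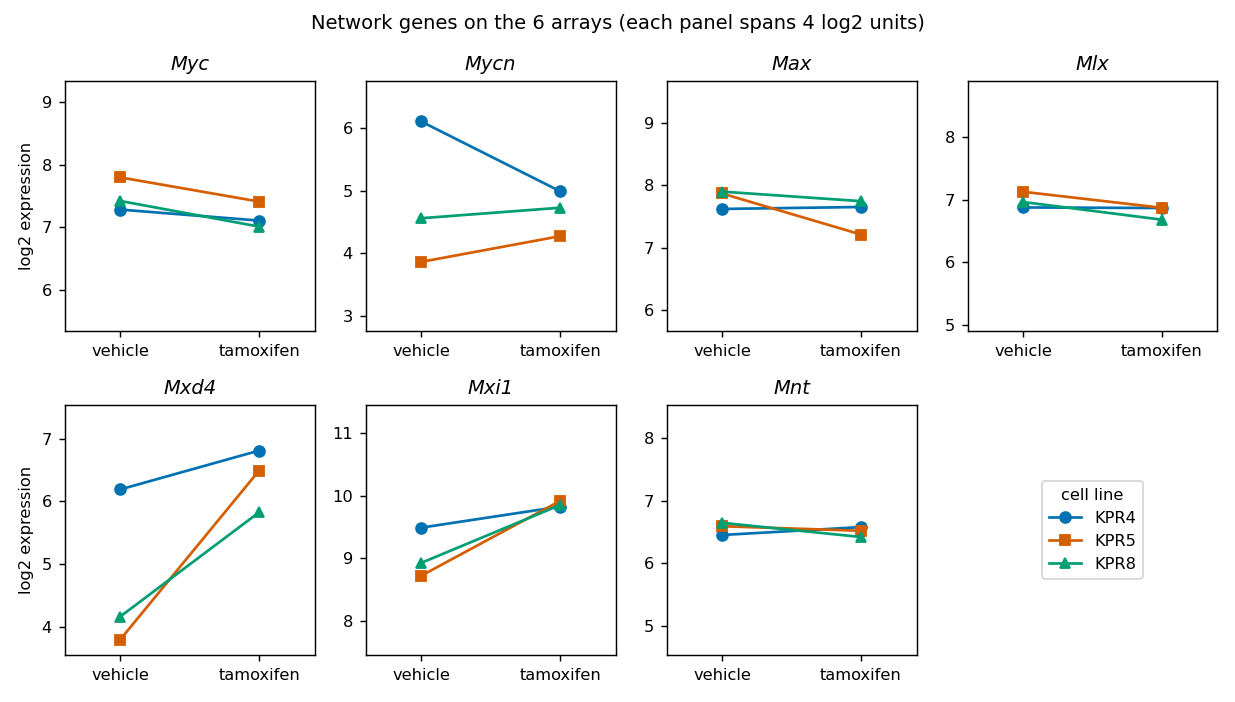
Log2 expression of the 7 tested members (vertical axis, 4 log2 units in every panel) with vehicle and with tamoxifen; each line joins the 2 arrays of 1 cell line. Mxd4 and Mxi1 rise in 3 of 3 lines, and the Mycn value of KPR4 with vehicle, 6.11, stands above the other 5. Heights are not comparable between panels, since each probe set has its own response.

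Mxd4, a small MAX-binding repressor, changed most. Its level was 6.19 in KPR4, 3.79 in KPR5 and 4.16 in KPR8 with vehicle, and 6.81, 6.49 and 5.83 with tamoxifen. The gene was therefore already high in KPR4 before the drug and low in the other lines. Once treated, KPR5 came close to KPR4, while KPR8 stayed 0.99 below it. The vehicle mean was 4.71 ± 1.29 and the tamoxifen mean 6.38 ± 0.50 (SD, n = 3). The rise was 1.54-fold, 6.51-fold and 3.18-fold in KPR4, KPR5 and KPR8. The limma change was 1.66 ± 0.27 (SE), or 3.17-fold, with an adjusted p of 0.00063, and it ranked 52 among the 805 genes that rose. That error leans mostly on the variances of all genes. The changes of 0.62 in KPR4 and 2.70 in KPR5 lie outside the 95% interval, 1.08 to 2.25. The ranges of the groups overlap through KPR4, so the call rests on the comparison within lines. The vehicle level in KPR5 is under log2 4, although above the Bacillus controls, so its fold is approximate. Without 1 line the change ran from 1.14 (no KPR5) to 2.18 (no KPR4) and kept its call. Such fits hold fewer arrays, and their errors lean still more on the variances of all genes.

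The array carries 4 probe sets for Mxd4. A second, dimmer one read 3.91, 2.67 and 3.04 in KPR4, KPR5 and KPR8 with vehicle and 4.42, 4.09 and 3.71 with tamoxifen. It repeats the order of the lines seen with vehicle on the brighter one. Its change was 0.87 ± 0.17 (SE), with a limma adjusted p of 0.0080 over all probe sets without a filter. Of the remaining pair, one had a change of 0.36 ± 0.13 (adjusted p = 0.131) at levels of 3.28 to 3.87, and the other stayed under the highest Bacillus control on all arrays. The dimmest probe sets say little about the gene, since their values lie near background.

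Mxi1, which like the MXD proteins recruits SIN3 to MAX-bound sites, was the other member to rise. It read 9.49, 8.72 and 8.93 with vehicle in KPR4, KPR5 and KPR8, and 9.83, 9.92 and 9.85 with tamoxifen. The treated arrays lay within 0.091 log2 units of each other, against 0.77 with vehicle, and the groups did not overlap. The change was 0.34, 1.20 and 0.92 in the 3 lines, and as for Mxd4 it was smallest in KPR4 and largest in KPR5. The limma change was 0.82 ± 0.16 (SE), or 1.76-fold, with an adjusted p of 0.0022. Without KPR8 it was 0.77 and lost its call (adjusted p = 0.0520). A second Mxi1 probe set, below the filter at 3.22 to 3.81, had a change of 0.22 ± 0.14 (adjusted p = 0.435).

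Mnt, the broadly expressed antagonist, varied little between the arrays. Its values were 6.45, 6.59 and 6.65 with vehicle and 6.58, 6.52 and 6.42 with tamoxifen, in the same order of lines. The change was -0.06 ± 0.17 (SE, adjusted p = 0.853), with a 95% interval from -0.42 to 0.30. Its second probe set did not exceed 2.71. Mxd1, the founding member of the MXD family, read 2.98 to 3.32 on the 6 arrays, just above the Bacillus controls. Its change without a filter was 0.05 ± 0.11 (SE), at a level where little can be seen.

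Myc itself, the main MYC gene of dividing epithelial cells, was measured by 1 probe set. It read 7.28, 7.80 and 7.42 with vehicle in KPR4, KPR5 and KPR8, and 7.10, 7.41 and 7.01 with tamoxifen. Each line read lower with the drug, by 0.18, 0.39 and 0.41, but the treated KPR5 array lay above the untreated KPR4 array, so the groups overlapped. The vehicle mean was 7.50 ± 0.27 and the tamoxifen mean 7.17 ± 0.21 (SD, n = 3). The limma change was -0.32 ± 0.16 (SE), with a 95% interval from -0.67 to 0.02 and an adjusted p of 0.176. A fall of Myc RNA was thus not established with 3 lines, and the interval holds values from -0.67 to just above 0. The same sign in 3 of 3 lines was seen for 51.7% of all genes tested and for 4 of the 7 tested members, so it does not set Myc apart.

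Mycn, the MYC gene of neural and embryonic tissue, was low and uneven between lines. It read 6.11 in KPR4, 3.86 in KPR5 and 4.56 in KPR8 with vehicle, and 4.99, 4.27 and 4.73 with tamoxifen. The KPR4 value dropped by 1.12 while the other lines read higher by 0.41 and 0.17, so the spread between lines narrowed from 2.24 to 0.72. The mean change was -0.18 ± 0.23 (SE, adjusted p = 0.641), and without KPR4 it was 0.29 (adjusted p = 0.439). With 1 array per line and treatment, a difference of response between lines could not be tested. The other Mycn probe sets were under log2 4 on all arrays and did not share the KPR4 value: the brighter read 3.59, 3.56 and 3.82 with vehicle in KPR4, KPR5 and KPR8. Mycl, the third MYC gene, had 3 probe sets, all at 3.69 or lower.

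Max, the shared partner of the MYC and MXD proteins, read 7.62, 7.87 and 7.90 with vehicle and 7.65, 7.21 and 7.75 with tamoxifen. Only the treated KPR5 array stood apart, lower by 0.66 than its vehicle array. The change over the lines was -0.26 ± 0.17 (SE, adjusted p = 0.328). Mlx read 6.88, 7.13 and 6.97 with vehicle and 6.87, 6.87 and 6.68 with tamoxifen. The Mlx groups did not overlap, but the change in KPR4 was -0.0098, and the change over the lines of -0.18 ± 0.16 (SE) had an adjusted p of 0.486. Its second probe set, under log2 4, gave -0.16 ± 0.14.

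Set against Myc within each line, the antagonists differed among themselves. The change of Mxd4 exceeded that of Myc by 0.80, 3.09 and 2.08 in KPR4, KPR5 and KPR8, a mean of 1.99 ± 1.15 (SD, n = 3). For Mxi1 the excess was 0.51, 1.58 and 1.34, with a mean of 1.14 ± 0.56. For Mnt it was 0.30, 0.31 and 0.18, with a mean of 0.27 ± 0.07. These are differences of changes and not ratios of protein or RNA amounts, and as a description over chosen members they carry no test. A sign of RNA integrity, the 3' minus 5' signal of Gapdh, shifted between treatments by 0.24, 0.29 and -0.40 in KPR4, KPR5 and KPR8. For Actb the shifts were 0.16, 0.39 and -0.07. Its part in the results was not tested.

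**Figure D2:**
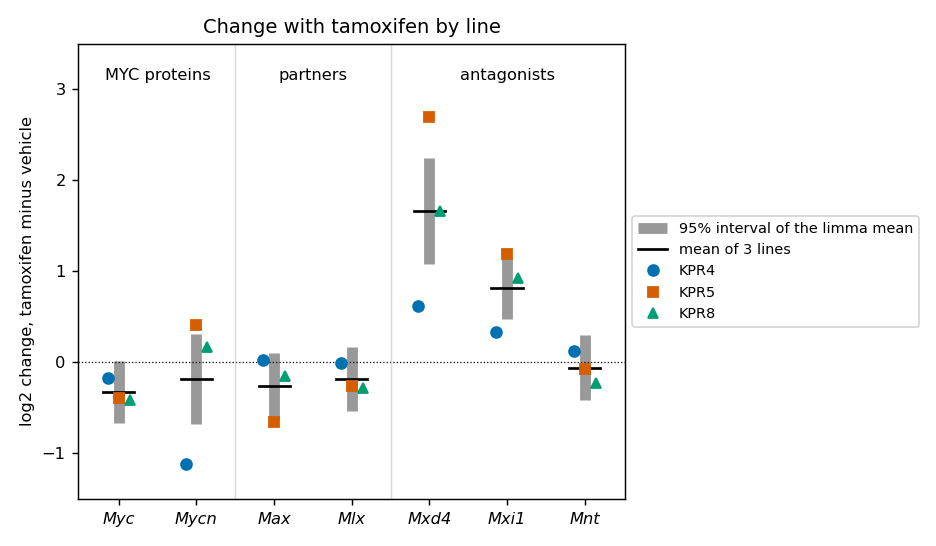
Log2 change with tamoxifen (vertical axis) of the 7 tested members, by role: coloured points are the 3 cell lines, black bars the mean and grey bars the 95% interval of the limma fit. The intervals of Mxd4 (1.08 to 2.25) and Mxi1 (0.48 to 1.16) lie above 0, and those of the other 5 include it.

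Levels of some members also differed between lines, in a fit with a term for treatment. In limma's F-test Mycn (adjusted p = 0.0026) and Mxd4 (adjusted p = 0.0039) differed between lines, 2 of 7 members, where 42% of all genes tested did. Averaged over treatments, Mycn was 5.55 in KPR4, 4.07 in KPR5 and 4.64 in KPR8. Mxd4 was 6.50, 5.14 and 4.99, so for both genes KPR4 was the highest line. The order of the other lines was not the same for the pair. Lines lay further apart with vehicle than with tamoxifen, by 2.24 against 0.72 for Mycn and 2.40 against 0.99 for Mxd4. Mxd4 lost this call without KPR4 (adjusted p = 0.699) and without KPR8 (adjusted p = 0.0507), and Mycn kept it without any 1 line. For Myc, with means of 7.19, 7.60 and 7.21, the adjusted p was 0.159. Max, Mlx, Mxi1 and Mnt had adjusted p-values of 0.503, 0.731, 0.305 and 0.985.

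Of the genes tested, those whose values over the 6 arrays followed Myc most closely were Ddx27 (Pearson r = 0.996), Noc3l (0.993), Rcl1 (0.992), Tle1 (0.992) and Cfap20 (0.989). This likeness mixes differences between lines with those between treatments, and it is the top of 7644 correlations over 6 points. Ddx27, Noc3l and Rcl1 were themselves called lower with tamoxifen, by 0.51, 0.53 and 0.62, while Tle1 (adjusted p = 0.225) and Cfap20 (adjusted p = 0.0970) were not.

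Further proteins of the network did not pass the test. Of 6 such genes 5 were tested, and 0 rose and 0 fell. Mxd3, an MXD protein tied to dividing cells, had a change of -0.14 ± 0.16 (SE), and Mga, a very large MAX-binding protein, of -0.32 ± 0.16 (adjusted p = 0.192). Mlxip, which encodes the glucose sensor MondoA, had a change of -0.19 ± 0.17. Mycbp and Mycbp2, which encode MYC-binding proteins, had changes of -0.0046 ± 0.17 and 0.12 ± 0.16. Mlxipl, which encodes ChREBP, did not exceed the highest Bacillus control. Of 11 tested regulators of Myc transcription, each by its brightest probe set, 0 rose and 0 fell. Their changes ran from -0.35 for Puf60, a repressor at the Myc promoter, to 0.25 for Klf4, a factor of epithelial differentiation. Probe sets of Cnbp, of the same list, disagreed: the one used gave 0.23, and another bright one gave -0.45. The latter had a limma adjusted p of 0.0125 over all probe sets without a filter.

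Several genes that control the stability of the MYC protein fell. Of 13 tested, 5 fell (38.5%, against 8.94% of all genes tested) and 1 rose (7.69%, against 10.5%, a share near the background). Their median change was -0.31, against 0.0019 over all genes tested. Aurka, a mitotic kinase that shields MYC proteins from degradation, fell by 1.22 on the log2 scale (adjusted p = 9.5e-05). Skp2, an F-box protein of a ubiquitin ligase for MYC and for p27, fell by 0.97 (adjusted p = 0.00063). Pim1, a kinase that phosphorylates MYC, fell by 0.58, Usp36, a nucleolar deubiquitinase, by 0.50, and Cip2a, an inhibitor of the phosphatase PP2A, by 0.43. A second Cip2a probe set gave -0.04, and on the one used the change in KPR8 was -0.07. Fbxo32, another F-box protein, rose by 0.62. These members act in opposite directions on MYC, and several are genes of the cell cycle, so the list's count does not give a direction for MYC protein. Without KPR4, 2 fell, without KPR5, 3 fell, and Fbxo32 lost its call without KPR5 or without KPR8. With no filter 3 fell.

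Of 14 tested co-activators of MYC, 4 fell (28.6%, against 8.94% of all genes tested) and 0 rose, with a median of -0.16. Wdr5, which tethers MYC to chromatin, fell by 0.78 (adjusted p = 0.0024). The AAA-type helicase genes Ruvbl2 and Ruvbl1 fell by 0.62 and 0.53, and their complex partner Actl6a by 0.49. A second Actl6a probe set gave 0.07, and a second one for Wdr5 gave -0.40 (adjusted p = 0.171). Only 2 of the list fell without KPR5 and 1 without KPR8. Trrap, the scaffold that MYC binds directly, had a change of -0.10.

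Of 12 tested SIN3 and histone deacetylase co-repressors, through which the antagonists act, 2 fell and 0 rose, with a median of -0.05. That is 16.7%, against 8.94% of all genes tested, and over so few genes not far from that share. Sin3a, the scaffold that MXD proteins bind, fell by 0.60 (adjusted p = 0.0168) and Ing2, a chromatin reader of the same complex, by 0.58. Other Sin3a probe sets gave -0.40 each, with adjusted p-values of 0.155 and 0.137. Sin3b, the second scaffold, had a change of -0.02, and the deacetylase genes Hdac1 and Hdac2 of 0.13 and 0.01. Without KPR4, and likewise without KPR8, 0 of the list fell, and 4 fell when a gene's probe sets were averaged.

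Many known targets of MYC fell. Of 42 tested genes that MYC activates in growth, the nucleolus and metabolism, 24 fell (57.1%) and 0 rose, where 8.94% of all genes tested were called lower and 10.5% higher. Their median change was -0.42, with -0.34 in KPR4, -0.46 in KPR5 and -0.52 in KPR8. Slc7a5, which imports large amino acids, fell by 1.11 (adjusted p = 0.0011). Srm, which makes spermidine, fell by 0.92, Shmt2 and Shmt1, of folate and serine metabolism, by 0.91 and 0.84, and Nolc1, a nucleolar protein, by 0.80. Ldha, the lactate dehydrogenase subunit, fell by 0.37. Among classic targets, Odc1, of polyamine synthesis, had a change of -0.02 and Cad, of pyrimidine synthesis, of 0.07, and neither passed. Other Odc1 probe sets gave -0.48 and -0.33 (limma adjusted p = 0.150 and 0.173, all probe sets without a filter). The other Cad probe set gave -0.07. Without KPR8, 15 fell. Ccnd2, which encodes cyclin D2, had changes of 0.17, 0.03 and 1.14 in KPR4, KPR5 and KPR8. With all lines its change was 0.44 (adjusted p = 0.0904). It was called higher without KPR4 (0.58, adjusted p = 0.0432) and without KPR5 (0.65, adjusted p = 0.0268), fits that both keep KPR8. Shmt2 had a change of -0.35 without KPR8 (adjusted p = 0.217) and also lost its call with robust moderation (adjusted p = 0.0633) and with no filter (adjusted p = 0.0550). Shmt1 lost its call without KPR5 (adjusted p = 0.0789), and 1 of its other probe sets gave -0.08.

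Upstream windows were searched for those of these targets that the promoter table holds. Of the 6 tested genes with CACGTG there, 4 fell, with a median of -0.39, and of the 28 without it 16 fell, with a median of -0.45. The difference between these sets was not tested, and many MYC sites lie outside such a window.

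Of 15 tested genes that MYC represses, each by its brightest probe set, 1 rose (6.67%, against 10.5% of all genes tested) and 0 fell, with a median of 0.07. For Cdkn1b, which encodes p27, the probe set used gave -0.20 and a dimmer one -0.67. The latter had a limma adjusted p of 0.0477 over all probe sets without a filter. The gene that rose was Cdkn1a, which encodes the cell cycle inhibitor p21 and is also a direct p53 target, from 6.46 to 11.09. Next came Thbs1, a matrix glycoprotein, at 0.54 ± 0.21 (SE, adjusted p = 0.0828), Gadd45g at 0.51 ± 0.17 (adjusted p = 0.0508) and Cdkn2b, which encodes p15, at 0.34 ± 0.13 (adjusted p = 0.0807). These were named after their values were seen. Thbs1 changed by 0.60, -0.24 and 1.25 in KPR4, KPR5 and KPR8. Without KPR5, the line where it read lower, it passed (0.93, adjusted p = 0.0020). Cdkn2b passed without KPR8 (0.47, adjusted p = 0.0468). Gadd45g passed with probe sets averaged (adjusted p = 0.0417), but it has 1 probe set, so its change stayed the same.

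Of 11 tested targets of Mondo and MLX dimers, 1 rose (9.09%, against 10.5% of all genes tested) and 2 fell (18.2%, against 8.94%). Rgs16, a brake on G protein signalling, rose by 2.40 ± 0.24 (SE, adjusted p = 7.9e-06), and its other probe sets gave 0.85 and, on a dim one, -0.11. The lipid synthesis genes Fasn and Elovl6 fell by 0.52 and 0.49, and both lost the call without KPR4 or without KPR8, Elovl6 also without KPR5 (adjusted p = 0.0506). Txnip, the most used readout of MondoA, had a change of 0.29 ± 0.13 (adjusted p = 0.146), and Arrdc4 of 0.01. Dimmer probe sets of these genes gave -0.26 for Txnip and -0.16 for Arrdc4.

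**Figure D3:**
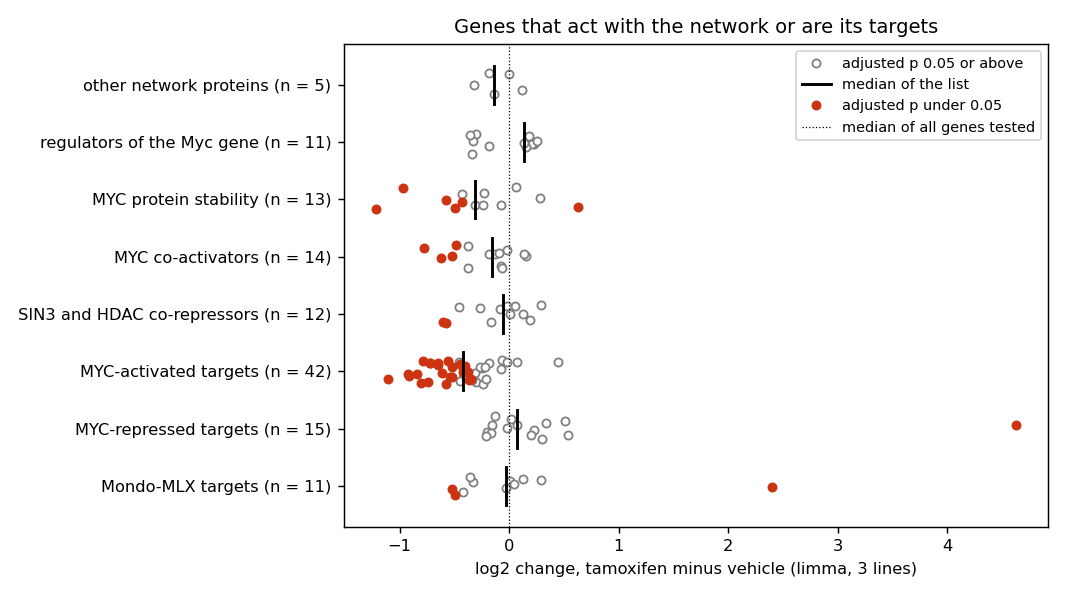
Log2 change with tamoxifen (horizontal axis) of each tested gene in 8 lists, with filled points for a limma adjusted p under 0.05 and black bars for list medians. The MYC-activated targets lie mostly left of the median of all genes (dotted line, 0.0019), and the far right points are Cdkn1a (4.63) and Rgs16 (2.40).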

How the data were processed

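The authors deposited a log2 value for each probe set on each array, and the submitters' processing notes name GCRMA (2.20.0) and R (2.11.0). That the scale is log2 rests on the values and on GCRMA's usual output. GCRMA models background from probe sequence and makes arrays alike in distribution, so a shift common to most genes would be hidden. The sources used here do not say whether other arrays entered that step.

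Of 22690 probe sets, 64 are array controls, 20380 have 1 gene symbol in GEO's platform annotation, 691 several and 1555 none. Only those with 1 symbol were used, and updating them by Entrez identifier changed 0 symbols. The brightest passing probe set stood for a gene. The fit across all genes used limma 3.58.1 in R 4.3.3 with terms for line and treatment, a variance trend and Benjamini-Hochberg adjustment over 7644 genes. There are 2 residual degrees of freedom, to which moderation adds 12.9. The same steps were run on simulated data, with variances drawn from the fitted prior and changes shared by all lines. Such data cannot show how the steps behave where the lines respond differently. The line pairs the arrays: deviations from the group means correlated at 0.876, 0.737 and 0.761 within KPR4, KPR5 and KPR8. The lines are the replicates, with 1 array per line and treatment, so a p-value sets the mean response against the spread between lines. Errors of changes are moderated standard errors. The number of arrays limits the precision.

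The named genes were all members, and of each list up to 5 called genes with the largest change; others are named for contrast, after their values were seen. The members and lists were chosen with earlier results of these data known. Alternatives changed the line term, filter, probe set rule, normalization and moderation, and left out each line.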

Additional observations from a re-analysis of the deposited data

Results flagged for a closer look

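Mycn was singled out because its change with tamoxifen had opposite signs in different lines and differed between them by over 1 log2 unit: -1.12 in KPR4, 0.41 in KPR5 and 0.17 in KPR8. The difference was not tested, since each line has 1 array per treatment. The vehicle array of KPR4 alone sets it, at 6.11 against 3.86 to 4.99 on the other arrays, and the dimmer Mycn probe sets do not repeat it.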

How the results depend on the processing

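The arrays are paired by cell line, and without the replicate block (no line term) 22 genes were called higher and 1 lower, with 0 members higher. Mxd4 then had an adjusted p of 0.401 and Mxi1 of 0.248. Leaving out 1 line gave 525 to 613 genes higher and 420 to 456 lower, 1 to 2 members higher (1 without KPR8), 1480 to 2469 genes differing between lines, and 1 to 2 members differing between lines (1 without KPR4 or KPR8). With the stricter filter, log2 6 on 3 arrays, 1 member differed between lines, as Mycn was no longer tested. In the other alternatives (no filter, mean of probe sets, quantile normalization, moderation without trend or robust) 2 members were higher and 0 lower. With probe sets averaged, the changes of Mxd4 and Mxi1 could not differ from the main fit, since 1 probe set of each passed the filter. With no filter the same brightest probe set stood for each. Only their errors and p-values could change there. With 2 residual degrees of freedom, the errors lean on the variances of all genes. Values near the Bacillus controls limit Mxd1, Mycl and the dim probe sets.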
